A study of Mus musculus with 4 samples.

Results

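The genes described here are the drug and xenobiotic metabolism families of the mouse. They were taken by symbol: the cytochrome P450 genes of families 1 to 3 (Cyp1-3), the Ces1 and Ces2 carboxylesterases (Ces), the UDP-glucuronosyltransferases Ugt1a and Ugt2, the glutathione S-transferases of the alpha, mu, pi and theta classes (Gst), and the Sult1 and Sult2 sulfotransferases (Sult). Of 17762 genes listed in at least 1 library, 96 were members: 45 Cyp1-3, 15 Ces, 7 Ugt1a, 8 Ugt2, 16 Gst and 5 Sult. Polyadenylated RNA was sequenced from intestinal tumours (adenomas) that form in ApcMin mice, carriers of a mutant Apc allele. The samples are labelled as colon adenoma. All 4 libraries came from C57BL/6 mice aged 110 days and carrying ApcMin, with 2 libraries labelled ApcMin Strap WT (WT) and 2 labelled ApcMin Strap KO (KO). The genotype labels name the knockout without its tissue, the series text writes it as StrapIEKO, and none of the sources used here gives the Cre driver or the deleted part of Strap. The labels give no animal for any library, and p-values measure the spread between the 2 libraries of a genotype, which differed in sex-linked transcripts and so were not repeats of 1 mouse.

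Drug metabolism runs in stages. In phase I, P450 enzymes of the endoplasmic reticulum oxidise lipophilic compounds and carboxylesterases hydrolyse esters and amides, including many prodrugs. In phase II, glucuronosyl-, glutathione and sulfotransferases attach a polar group, and efflux pumps then carry the conjugates out of the cell. Enterocytes of the small intestine hold much of this machinery outside the liver, under nuclear receptors such as Nr1i2 (PXR) and Nr1i3 (CAR) and the hepatocyte nuclear factors that also work in intestinal epithelium.

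The promoter windows of 4 genes in 2 clusters are shown: Ugt1a1 and Ugt1a7c on chromosome 1, and Ces2a with its more abundant neighbour Ces2e on chromosome 8. They were chosen after the values were seen, because each pair lies in one cluster while its members stood in different proportions in WT and KO. Each window runs from 250 bases before the RefSeq start to 50 bases after it, on the plus strand of GRCm38.p6, 5′ to 3′. In the Ugt1a pair capitals mark the match to an HNF1 motif, and in the Ces2 pair they mark every run of at least 12 bases that both windows hold.
Ugt1a1, chr1:88211709-88212008: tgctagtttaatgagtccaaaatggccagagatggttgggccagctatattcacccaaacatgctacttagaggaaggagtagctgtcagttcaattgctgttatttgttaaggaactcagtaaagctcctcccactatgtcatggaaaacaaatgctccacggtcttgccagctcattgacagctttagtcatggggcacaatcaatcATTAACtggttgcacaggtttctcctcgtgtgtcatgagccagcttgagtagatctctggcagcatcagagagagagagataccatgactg
Ugt1a7c, chr1:88094751-88095050: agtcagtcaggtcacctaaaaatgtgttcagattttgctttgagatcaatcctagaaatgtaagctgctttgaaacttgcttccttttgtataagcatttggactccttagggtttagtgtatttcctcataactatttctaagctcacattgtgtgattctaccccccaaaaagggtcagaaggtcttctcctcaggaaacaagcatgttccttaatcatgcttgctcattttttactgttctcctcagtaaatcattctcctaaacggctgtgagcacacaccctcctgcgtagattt
Ces2a, chr8:104733753-104734052: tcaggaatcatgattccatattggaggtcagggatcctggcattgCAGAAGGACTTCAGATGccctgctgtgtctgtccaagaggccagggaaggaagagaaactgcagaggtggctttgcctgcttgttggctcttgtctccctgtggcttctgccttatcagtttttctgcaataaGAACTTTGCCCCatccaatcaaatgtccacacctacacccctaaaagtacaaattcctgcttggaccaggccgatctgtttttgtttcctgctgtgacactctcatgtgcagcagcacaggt
Ces2e, chr8:104926010-104926309: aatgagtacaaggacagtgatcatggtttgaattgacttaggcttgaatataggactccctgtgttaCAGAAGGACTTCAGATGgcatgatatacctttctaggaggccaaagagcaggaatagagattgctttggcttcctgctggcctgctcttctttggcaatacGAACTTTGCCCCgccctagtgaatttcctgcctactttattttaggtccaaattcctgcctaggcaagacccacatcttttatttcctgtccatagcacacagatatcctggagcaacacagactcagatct

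The windows were searched on both strands for the letters GCGTG (the dioxin response element core), TGACNNNGC (the antioxidant response element core), GTTAAT (an HNF1 motif) and AAAGTCC (an HNF4 core). Ugt1a1 held 1 match, to GTTAAT, in reverse complement, and the windows of Ugt1a7c, Ces2a and Ces2e held none of the 4 motifs. The Ces2a and Ces2e windows shared 2 runs with 29 bases in all, the longest of 17 bases. The windows of Ugt1a1 and Ugt1a7c shared no run longer than 9 bases. RefSeq windows were found for 82 members, 93 windows in all. GTTAAT occurred in 11.8% of them and in 7.1% of all 32851 promoter windows, and AAAGTCC in 14% and 4.21%. GCGTG occurred in 22.6% of member windows and 32.4% of all windows, and TGACNNNGC in 6.45% and 12.4%. Matches to these letters are a description of the windows and not binding sites.

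Library totals ran from 14084814 to 15640931 expected counts, and 87, 78, 72 and 76 members were listed in WT replicates 1 and 2 and KO replicates 1 and 2. Strap, the targeted gene, had 157 and 112 CPM (counts scaled to a common library total with TMM factors) in WT and 20.5 and 24.8 CPM in KO (log2 fold change -2.57 ± 0.26 (SE), edgeR adjusted p = 0.0942). Xist stood at 968 and 197 CPM in the libraries numbered 1 and at no more than 0.954 CPM in those numbered 2. The Y-linked gene Ddx3y was not listed in the libraries numbered 1 and had 39.1 and 33.3 CPM in those numbered 2. The 8 colon markers summed to between 18.9 and 48.7 CPM. In contrast 15 absorptive enterocyte markers summed to 39317 and 18820 CPM in WT against 30535 and 33243 CPM in KO, and among 8 proximal small intestine markers the sum was 5059, 415, 4480 and 2956 CPM, so the colon label was not matched by its markers. The sum of 7 ileum markers was 1849, 4885, 2461 and 1595 CPM. WT replicate 1 stood apart, with 477 CPM of gastric epithelium markers (Muc6 alone 404 CPM) against no more than 3.89 CPM in the other libraries. Its endothelium markers summed to 41.3 CPM (Cdh5 alone 35.6 CPM) against no more than 2.25 CPM, while the endothelium marker Pecam1 was highest in KO replicate 2. Of 8 hepatocyte markers 7 were listed, with a sum of 663 and 1291 CPM in WT against 1435 and 1464 CPM in KO. Most of it came from Cps1 (647, 1279, 1429 and 1457 CPM). Alb, the defining one, went the other way, with 5.33 CPM in WT replicate 1, 0.0649 CPM in WT replicate 2 and 0 in KO. Markers of tuft cells, a chemosensory epithelial type, had a sum over 5 genes of 74.6 and 108 CPM in WT against 25.3 and 7.29 CPM in KO. Of the 5, 4 lay lower in both KO libraries than in both WT libraries (24.6% of all tested genes did), none with an edgeR adjusted p under 0.05. The 5 listed Paneth cell markers summed to 9225, 24493, 10757 and 7212 CPM, and the 6 T and natural killer cell markers to 258 CPM in KO replicate 2 against 28.3 to 45.4 CPM elsewhere. The part of all these differences in the results was not tested.

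The members ranged from not listed to 742.8 FPKM, a level scaled to transcript length. Gstp1, a pi class glutathione transferase, had the highest mean FPKM, with 533 and 517 FPKM in WT and 743 and 645 FPKM in KO. It was followed by the carboxylesterase Ces2e (504, 355, 312 and 371 FPKM in WT replicates 1 and 2 and KO replicates 1 and 2). The P450 enzyme Cyp3a11, which oxidises a wide range of drugs and steroids, came next with 539, 23.8, 11 and 126 FPKM. That gene spanned the widest range of the 24 members plotted, and its WT and KO libraries alternated in order. At the low end 36 members never exceeded 20 counts in a library, and 16 were listed in 1 library alone. The classical aryl hydrocarbon receptor target Cyp1a1 was listed in KO replicate 2 alone, with 1 count, and Cyp1a2 in KO replicate 1 alone, with 1 count. Only 59 of the 96 members passed the filter on low counts and were tested: 18 of 45 Cyp1-3, 11 of 15 Ces, 5 of 7 Ugt1a, 5 of 8 Ugt2, 15 of 16 Gst and 5 of 5 Sult.

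**Figure D1:**
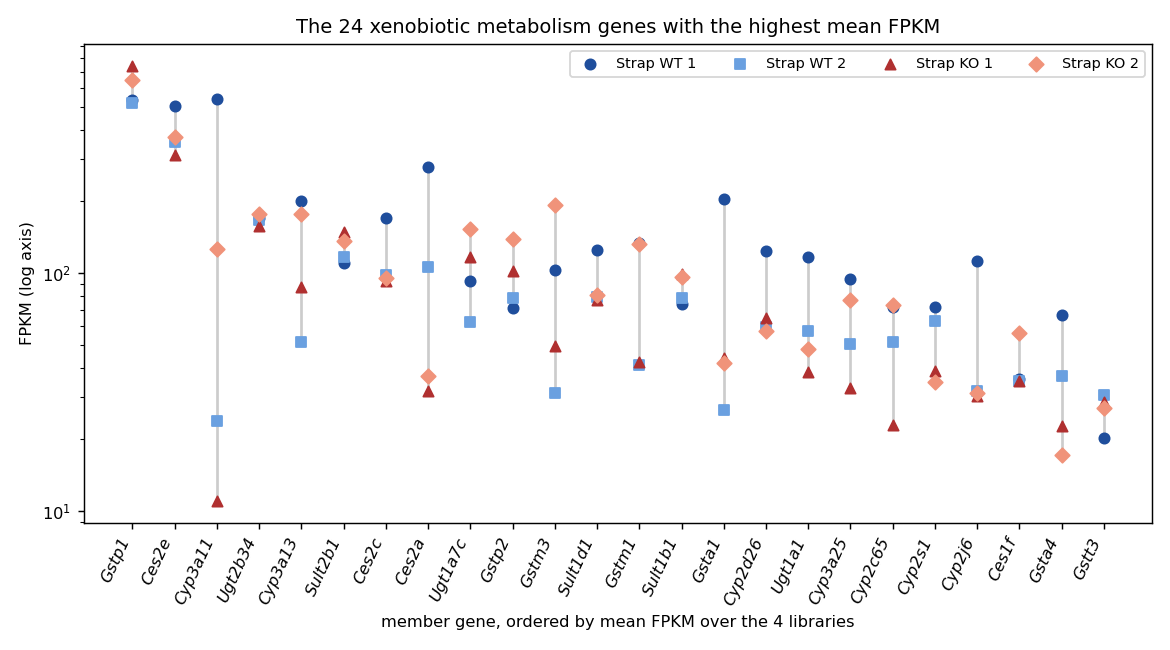
FPKM on a log axis of the 24 members with the highest mean over the 4 libraries, 1 point per library, with a grey line from the lowest to the highest. Cyp3a11 runs from 11 to 539 FPKM, while Ugt2b34 lies between 158 and 177 FPKM in every library.

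No member passed an edgeR adjusted p under 0.05 in either direction, against 0.00783% of the 12769 tested genes called higher and 0% called lower. At an unadjusted p under 0.05, 2 members were higher in KO (3.39% of 59, against 7.08% of all genes) and 11 were lower (18.6%, against 8.69%). The higher ones were Gstp2 and Ugt1a7c. The lower ones were Ces2a, Cyp2w1, Ces1d, Sult1c2, Sult1a1, Cyp2s1, Gsta4, Ces2d-ps, Ces1c, Ugt1a1 and Cyp2r1. With DESeq2 0 members were called higher, against 1.77% of the 13269 genes with an adjusted p, and 7 of 61 were called lower (11.5%, against 3.26%): Ces1d, Ces2a, Cyp2s1, Cyp2w1, Gsta4, Sult1a1 and Sult1c2. In CPM, 9 members had both KO values above both WT values, against 25.4% of all genes, and 18 had both KO values below, against 24.6%. Those shares were 15.3% and 30.5% of the tested members. Counts decided which low members were tested: 8 reached 10 counts in both WT libraries but not in both KO libraries, and 0 did so in KO alone. Of the 8, Ces1d, Cyp2e1, Cyp2r1, Cyp2w1 and Sult1a1 reached 10 counts in no KO library, so they had to differ to be tested at all. Cyp2c44, Ugt1a9 and Ces2d-ps had 10, 15.3 and 11.2 counts in their higher KO library.

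The log2 fold change was negative for 41 of the 59 tested members (45 with library size alone) and positive for 18, with a median of -0.37 against 0.0037 over all tested genes. Keeping members by their mean over the 4 libraries instead, 54 members had at least 1 FPKM, of which 36 (66.7%) had a negative log2 fold change, against 46.6% of 11251 genes. WT replicate 1 was the highest library for 27 members (45.8%, against 28.8% of all genes), and WT replicate 2 for 16. Within library number 1 and within library number 2 alike, KO was below WT for 26 members (44.1%, against 29.6% of all genes). KO was above WT within both numbers for 11 (18.6%, against 30.6%). Libraries of one number are not known to be pairs. By definition the 26 hold the 18 members with both KO values below both WT values, so the 2 counts are not separate. The 26 included all 8 members, described above, that reached 10 counts in both WT libraries but not in both KO libraries. Those of the 8 that reached 10 counts in no KO library had to differ to be tested at all, so the 44.1% rests partly on the filter. Without WT replicate 2 the filter applied anew let in 65 members, among them Cyp1b1, which was not tested with all libraries. The log2 fold change of Gsta1 was -1.41 with all libraries, -2.21 without WT replicate 2 and 0.72 without WT replicate 1.

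**Figure D2:**
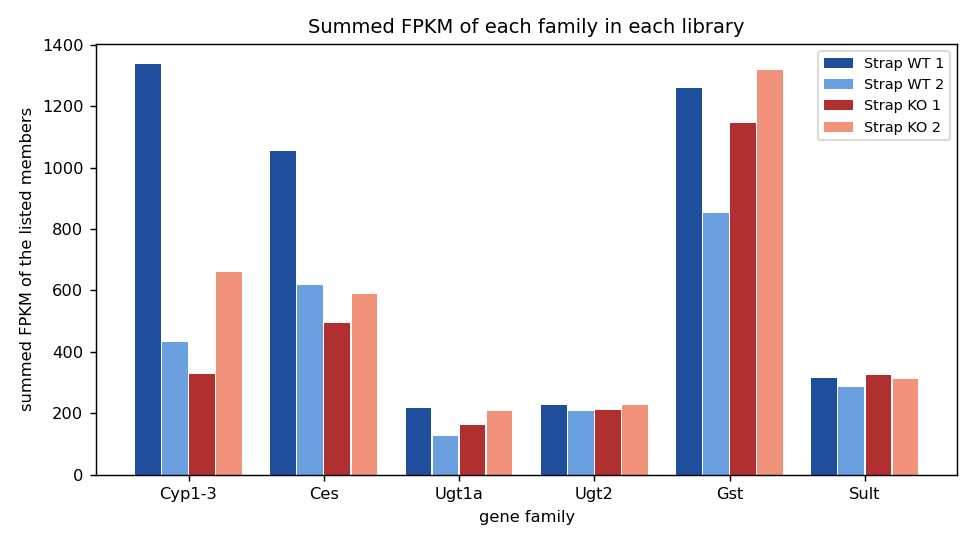
Summed FPKM of the listed members of each family, 1 bar per library. The Cyp1-3 and Ces sums are highest in WT replicate 1 (1336 and 1055 FPKM), and the Ugt2 and Sult sums lie within 209 to 228 and 285 to 326 FPKM in every library.

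Among the P450 genes 16 of 18 tested had a negative log2 fold change, with a median of -0.83. The summed FPKM of the family was 1336 and 432 in WT and 327 and 661 in KO, so the groups overlapped. The median was -1.64 without WT replicate 2 and -1.68 without KO replicate 2. The filter applied anew then tested 65 and 67 members over all families in place of 59, so these medians are not over the same 18 genes. The log2 ratio of the summed FPKM turned from -0.84 to 0.19 without WT replicate 1. No P450 gene lay higher in both KO libraries than in both WT libraries (25.4% of all genes did), and 6 of 18 lay lower (24.6% of all genes did). The Cyp1-3 genes were lower in KO within both library numbers in 10 of 18 cases (29.6% of all genes) and higher within both in 0 (30.6% of all genes). The 10 included Cyp2c44, Cyp2e1, Cyp2r1 and Cyp2w1, which reached 10 counts in both WT libraries but not in both KO libraries. All of these but Cyp2c44 were also among the 6 of 18, and by definition all 6 are among the 10. Of 15 P450 genes with a mean of at least 1 FPKM, 13 had a negative log2 fold change. Among the 15, 4 lay below WT in both KO libraries and 0 above, against 2526 and 3143 of 11251 genes. In bulk tissue fewer cells that express a gene and less RNA per cell cannot be told apart.

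Cyp2s1, an extrahepatic P450 of epithelia (chromosome 7, 25802469 to 25816525, GRCm38.p6), had 183 and 160 CPM in WT against 106 and 85.2 CPM in KO. Both KO libraries were below both WT libraries, and libraries of one genotype lay close together. The log2 fold change was -0.84 ± 0.22 (SE), with an edgeR adjusted p of 0.22 and an adjusted p of 0.0344 with DESeq2 (0.0344 to 0.779 over 15 settings). Cyp2w1, a P450 known from fetal colon and colorectal tumours, was low: 2.12 and 4.15 CPM in WT against 0.273 and 0.273 CPM in KO, or 33, 64, 4 and 4 counts. Its groups did not overlap (log2 fold change -3.48 ± 0.74 (SE), edgeR adjusted p = 0.186). Cyp2r1, a vitamin D 25-hydroxylase, had 14 and 17 counts in WT and 4 and 1 in KO. That gave a log2 fold change of -2.50 ± 0.95 (SE) with an edgeR adjusted p of 0.297. Cyp2j9 had 6.10 and 3.05 CPM in WT against 1.30 and 2.11 CPM in KO (log2 fold change -1.42 ± 0.62 (SE), edgeR adjusted p = 0.337), again without overlap.

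Several abundant P450 genes, unlike Cyp2s1, had overlapping groups. Cyp3a11 had 1064 and 46.9 CPM in WT against 23.5 and 241 CPM in KO, and its log2 fold change of -2.07 ± 1.51 (SE) became 1.48 without WT replicate 1. Between libraries of the same number KO stood at 2.21% of WT in number 1 and at 514% in number 2. Cyp3a13, the main intestinal Cyp3a gene of the mouse besides Cyp3a11, had 577 and 147 CPM in WT against 272 and 493 CPM in KO, with no consistent side (log2 fold change 0.08 ± 0.65 (SE)). Cyp3a25 had 181 and 96.0 CPM in WT against 68.1 and 143 CPM in KO. Within the Cyp3a genes Cyp3a11 made up 64.6% and 18.9% of the summed FPKM in WT and 8.36% and 33.1% in KO, and Cyp3a13 24.1% and 40.5% in WT and 66.4% and 46.6% in KO. Which Cyp3a gene led therefore differed between the WT libraries: Cyp3a11 in the first and Cyp3a13 in the second. There Cyp3a25, at 39.8%, was nearly level with Cyp3a13. Cyp2d26, one of the Cyp2d genes, had 195 and 92.8 CPM in WT against 110 and 86.7 CPM in KO.

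Cyp2c and Cyp2j genes completed the P450 picture. Cyp2c65, an intestinal member that oxidises arachidonic acid, had 134 and 95.4 CPM in WT against 46.1 and 132 CPM in KO. Its neighbour Cyp2c55 had 24.5 and 88.9 CPM in WT against 0.888 and 34.0 CPM in KO, so KO replicate 1 was lowest and the groups overlapped. All 5 tested Cyp2c genes had a negative log2 fold change, from -1.70 (Cyp2c55) to -0.30 (Cyp2c68). Cyp2j6, an intestinal epoxygenase, had 393 CPM in WT replicate 1 and between 107 and 115 CPM in the other libraries. Cyp2c55, Cyp2c65, Cyp2c68 and Cyp2j6 were chosen after their values were seen. Of the 96 members 5 were listed in both WT libraries and in neither KO library, against 1.99% of the 17762 genes: Cyp1b1, Cyp2c29, Cyp2d12, Cyp2d34 and Cyp2f2. Cyp1b1, an aryl hydrocarbon receptor target also found in stromal and vascular cells, had 220 counts in WT replicate 1 and 8 in WT replicate 2. The other 4 had at most 13 counts in a library. In WT replicate 1 the endothelial marker Cdh5 stood at 35.6 CPM, against no more than 0.649 CPM in the other libraries. Vwf and Kdr were also highest there, at only 4.81 and 0.321 CPM, while Pecam1 was highest in KO replicate 2, at 1.29 CPM. Whether the cells that held Cdh5 also held Cyp1b1 was not tested.

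Of 11 tested carboxylesterase genes 8 had a negative log2 fold change, with a median of -0.70, and 10 did with DESeq2 size factors or library size alone, where Ces1e and Ces2g, both near 0, changed sign. The summed FPKM was 1055 and 618 in WT and 495 and 589 in KO, and both KO sums were below both WT sums. Without WT replicate 1 the log2 ratio of the sums went from -0.63 to -0.19. Ces2a, one of the Ces2 esterases that hydrolyse prodrugs and acylglycerols in the intestine (chromosome 8, 104734003 to 104741634), had 528 and 199 CPM in WT against 65.4 and 67.1 CPM in KO. The KO libraries were nearly equal and both below the lower WT library. It had the smallest p of all members, with a log2 fold change of -2.46 ± 0.48 (SE) and an edgeR adjusted p of 0.162. With DESeq2 the adjusted p was 5.60e-06, and over 15 settings it lay between 5.60e-06 and 0.779, with a log2 fold change between -2.98 and -1.60. KO stood at 12.4% of WT in libraries numbered 1 and at 33.8% in those numbered 2.

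Its neighbours in the cluster had smaller log2 fold changes, a difference that was not tested. Ces2e had 993 and 696 CPM in WT against 668 and 710 CPM in KO (log2 fold change -0.29 ± 0.29 (SE)), and Ces2c 324 and 185 CPM in WT against 191 and 175 CPM in KO (-0.48 ± 0.31 (SE)). For both the groups overlapped, and WT replicate 1 was the highest library. Ces2a made up 28.6% and 18.7% of the summed Ces2 FPKM in WT and 7.09% and 7.10% in KO, while Ces2e made up 51.3% and 62.7% in WT and 69% and 71.6% in KO. The ratio of Ces2a to Ces2e FPKM was 0.556 and 0.298 in WT and 0.103 and 0.0993 in KO. This pair and that of the Ugt1a genes were chosen for their difference and are given as a description, with no test. Of 7 such ratios computed within subfamilies, 3 had no overlap between groups (these 2 pairs and Ces2a over Ces2c) and 4 overlapped (Gstp2 over Gstp1, Cyp3a11 over Cyp3a13 and over Cyp3a25, and Gsta4 over Gsta1). The 2 Ces2 ratios share Ces2a. For single genes in CPM, 25.4% of all tested genes lay higher and 24.6% lower in both KO libraries, and no such share was computed for ratios. No stretch of 100 bases was shared between the transcripts of Ces2a and any other member compared, so reads of that length could be told apart. Ces2d-ps, a Ces2 gene with 37.3 and 42.2 counts in WT and 11.2 and 7.05 in KO, shared 18.9% of its 100-base windows with Ces2c and is uncertain.

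The Ces1 genes, which encode carboxylesterases of lipid and drug hydrolysis, split by member. Ces1d had 614 and 68 counts in WT and 1 and 7 counts in KO, or 39.4, 4.41, 0.0683 and 0.477 CPM. Its log2 fold change was -6.28 ± 1.35 (SE), with an edgeR adjusted p of 0.187 (0.00352 to 0.779 over 15 settings). WT replicate 1, the library with the stomach markers and Cdh5, held most of it, and WT replicate 2 was still above both KO libraries. Ces1c had 2.31 and 11.4 CPM in WT against 0.956 and 1.5 CPM in KO, with WT replicate 2 the highest (log2 fold change -2.47 ± 0.86 (SE), edgeR adjusted p = 0.273). In contrast Ces1f, the most abundant Ces1 gene, had 66.5 and 65 CPM in WT against 69.9 and 99.8 CPM in KO (log2 fold change 0.37 ± 0.23 (SE), edgeR adjusted p = 0.484).

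**Figure D3:**
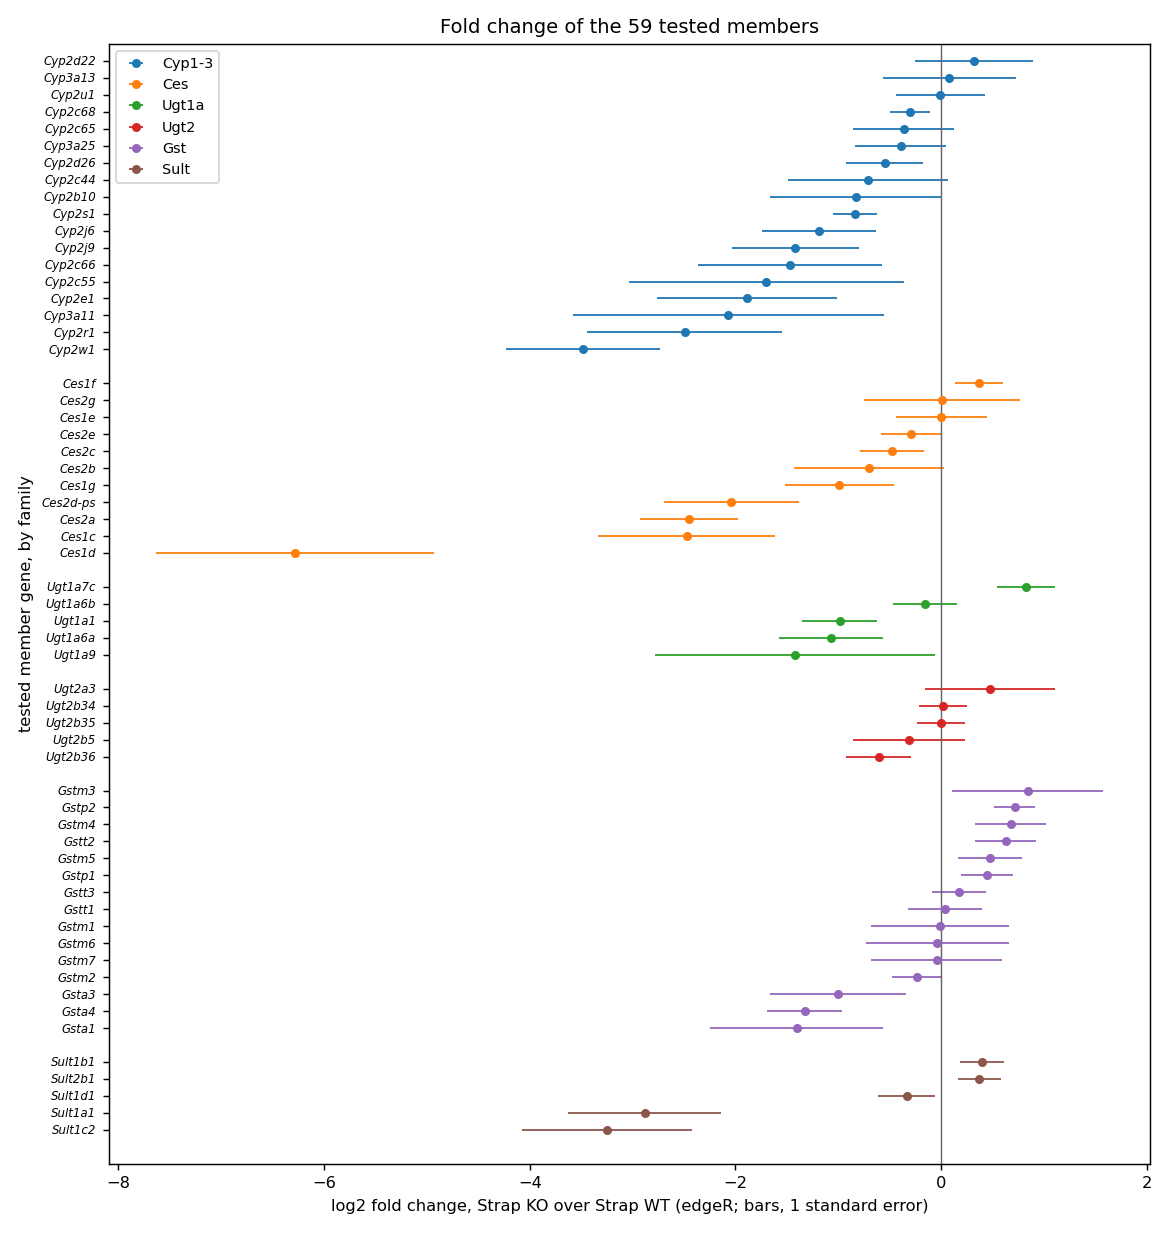
Log2 fold change of KO over WT for each of the 59 tested members, grouped and coloured by family, with bars of 1 standard error from the edgeR fit. Values run from -6.28 (Ces1d) to 0.84 (Gstm3), and 41 of 59 lie below 0.

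Glucuronidation genes of the Ugt1a locus differed in composition more than in sum. Ugt1a1, the bilirubin-conjugating enzyme, had 368 and 179 CPM in WT against 131 and 145 CPM in KO. Both KO libraries were below both WT libraries (log2 fold change -0.99 ± 0.37 (SE), edgeR adjusted p = 0.294). Ugt1a7c, the counterpart of the gastrointestinal UGT1A7 to UGT1A10 group, had 298 and 199 CPM in WT against 406 and 475 CPM in KO. Here both KO libraries were above both WT libraries (log2 fold change 0.82 ± 0.29 (SE), edgeR adjusted p = 0.273). The summed Ugt1a FPKM was 218 and 128 in WT and 161 and 208 in KO, with overlap. Without WT replicate 1 its log2 ratio went from 0.093 to 0.53, and without Ugt1a7c it was -0.95.

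Ugt1a1 made up 53.8% and 44.6% of the summed Ugt1a FPKM in WT and 23.9% and 23% in KO, and Ugt1a7c 42.7% and 48.8% in WT and 72.9% and 73.5% in KO. The ratio of Ugt1a1 to Ugt1a7c was 1.26 and 0.915 in WT and 0.328 and 0.312 in KO. Every Ugt1a messenger RNA joins a first exon of its own to exons that all of them use. In GENCODE M21 the first exon of Ugt1a1 lay at 88211959 to 88212871 of chromosome 1 (913 bases), and its other exons each overlapped exons of the other 6 listed Ugt1a genes. Of the 100-base windows of the GENCODE Ugt1a1 transcript 57.2% occurred in another Ugt1a transcript, and 39.4% for Ugt1a7c. The split of reads from those exons between the genes is therefore an estimate by RSEM. The Ugt1a1 and Ugt1a7c transcripts of GENCODE were 2224 and 3231 bases long, but RefSeq ends both genes at base 88220002. The shares in the transcripts that were counted were not measured and may be higher. The remaining Ugt1a genes were low: Ugt1a6a had 5.52 and 7.66 CPM in WT against 2.25 and 4.02 CPM in KO (log2 fold change -1.07 ± 0.51 (SE)). Ugt1a6b had 11.7 and 12.6 CPM in WT against 9.56 and 12.3 CPM in KO, and Ugt1a9 had 28.9, 14.2 and 15.3 counts and was not listed in KO replicate 2. The family's median log2 fold change of -0.99 over 5 genes was -0.44 at the lowest and -0.31 at the highest with 1 library left out. The filter was applied anew in those fits, so the genes tested could differ.

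**Figure D4:**
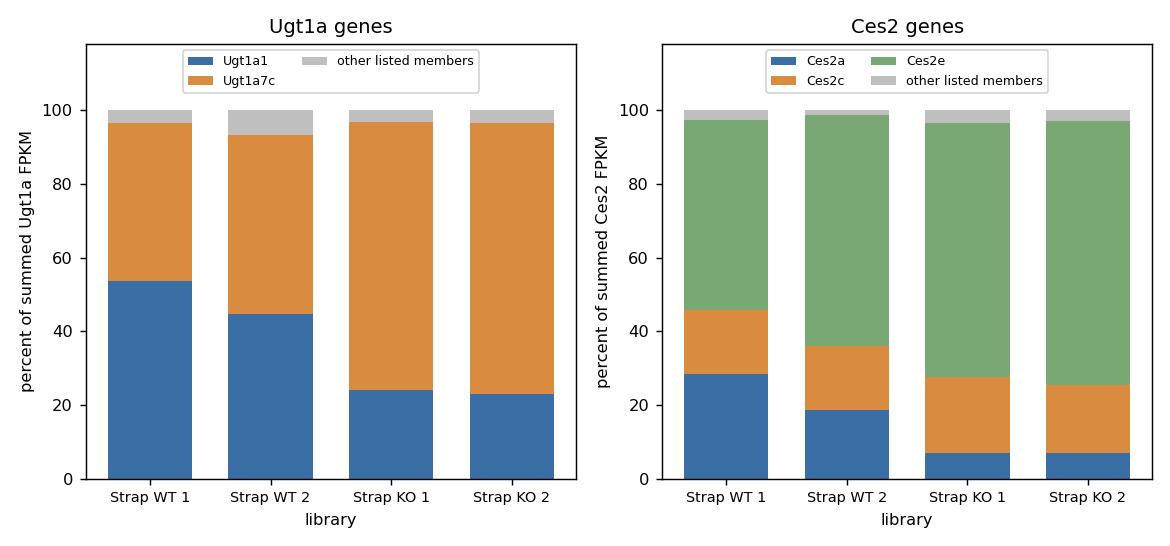
Percent of the summed FPKM taken by each named gene among the Ugt1a genes (left) and the Ces2 genes (right), 1 stacked bar per library. Ugt1a1 takes 23.9% and 23% of Ugt1a in KO, against 53.8% and 44.6% in WT, and Ces2a takes 7.09% and 7.10% of Ces2 in KO.

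The Ugt2 family was nearly level. Its summed FPKM was 228 and 209 in WT and 212 and 228 in KO, and the median log2 fold change over 5 genes was -0.0059. Ugt2b34, which supplied most of the family's FPKM, had 504 and 495 CPM in WT against 505 and 509 CPM in KO (log2 fold change 0.023 ± 0.23 (SE), -0.00952 with library size alone). Ugt2b35 had 44.8 and 43.0 CPM in WT against 36.4 and 51.0 CPM in KO. Ugt2a3, expressed in enterocytes, varied more, with 67.4 and 16 CPM in WT against 69.3 and 46.5 CPM in KO. WT replicate 2, the library lowest in proximal markers, was lowest here too, as for 30.5% of tested members. A link to those markers was not tested. Ugt2b36 had 12.1 and 15.8 CPM in WT against 9.08 and 9.20 CPM in KO without overlap (log2 fold change -0.61 ± 0.32 (SE), edgeR adjusted p = 0.405). Ugt2b5 had 7.51 and 21.3 CPM in WT against 14.2 and 9 CPM in KO. Ugt2b1 was listed in both KO libraries, with 4 and 5 counts, and in neither WT library, as were 0.653% of all genes.

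Among the glutathione transferases the sign of the log2 fold change was counted by class, with no test between classes. The summed FPKM of the family was 1260 and 851 in WT and 1145 and 1317 in KO. The median log2 fold change over 15 genes was 0.036, became 0.63 without WT replicate 1 and -0.33 without KO replicate 2. All 3 tested alpha class genes had a negative log2 fold change, both pi class genes and all 3 theta class genes a positive one (Gstt1 was -0.0112 with library size alone), and the 7 mu class genes stood at 3 positive and 4 negative.

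Gsta4, an alpha class enzyme that conjugates the lipid peroxidation product 4-hydroxynonenal, had 60.1 and 33.0 CPM in WT against 22.2 and 14.9 CPM in KO. Neither KO library reached the lower WT library (log2 fold change -1.33 ± 0.36 (SE), edgeR adjusted p = 0.227, and 0.0386 with DESeq2, over a range of 0.0386 to 0.779). Gsta1 had 163 CPM in WT replicate 1 and between 20.8 and 37.5 CPM in the other libraries, and was chosen after its values were seen. Gstp1 had 360 and 346 CPM in WT against 543 and 419 CPM in KO (log2 fold change 0.45 ± 0.25 (SE), edgeR adjusted p = 0.435). Gstp2 had 50.9 and 55.7 CPM in WT against 79.0 and 96.0 CPM in KO, and had the smallest p of the members higher in KO (0.71 ± 0.20 (SE), edgeR adjusted p = 0.236). Both Gstp genes were above WT in both KO libraries. They shared 52.8% and 54.6% of their 100-base windows with each other, so their split is uncertain. Their summed counts of 6400 and 6195 in WT and 9109 and 7554 in KO do not depend on it. The summed FPKM was 604 and 595 in WT and 845 and 785 in KO.

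Of the mu class, Gstm3 had 116 and 35.2 CPM in WT against 60.2 and 211 CPM in KO, and Gstm1 had 165 and 50.5 CPM in WT against 56.5 and 158 CPM in KO. WT replicate 1 and KO replicate 2 were the higher library of their group for both, and no genotype stood apart. Gstm4 had 8.92 and 8.05 CPM in WT against 11 and 16.2 CPM in KO (log2 fold change 0.68 ± 0.34 (SE), edgeR adjusted p = 0.394). Gstt2, of the theta class, had 19.4 and 19.0 CPM in WT against 36.8 and 22.6 CPM in KO (0.63 ± 0.30 (SE), edgeR adjusted p = 0.367). For these last genes the groups did not overlap.

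The 5 sulfotransferases comprised abundant and scarce genes with different values. Sult1b1, which sulfates thyroid hormones and phenols in the gut, had 186 and 198 CPM in WT against 270 and 234 CPM in KO (log2 fold change 0.39 ± 0.22 (SE), edgeR adjusted p = 0.422). Sult2b1, a cholesterol and hydroxysteroid sulfotransferase, had 119 and 125 CPM in WT against 173 and 142 CPM in KO (0.37 ± 0.21 (SE), edgeR adjusted p = 0.438). Both were above WT in both KO libraries. Sult1d1 had 290 and 184 CPM in WT against 194 and 181 CPM in KO, with overlap. Sult1a1, a phenol sulfotransferase, had 76 and 35 counts in WT and 9 and 5 in KO (-2.88 ± 0.74 (SE), edgeR adjusted p = 0.215). Sult1c2 had 3.02 and 13.4 CPM in WT against 0.888 and 0.818 CPM in KO, with WT replicate 2 far above the rest (-3.25 ± 0.83 (SE), edgeR adjusted p = 0.212). The summed FPKM of the family, 314 and 285 in WT and 326 and 313 in KO, came mostly from the abundant genes. Its median log2 fold change of -0.34 was 0.015 without WT replicate 1, -0.61 without WT replicate 2 and 0.33 where at least 50 counts in at least 2 libraries were asked for, which removed the scarce genes.

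Other genes of the pathway were read from textbook lists, and 0 genes on them passed edgeR's adjusted threshold. Of 25 tested xenobiotic-sensing receptors and partner factors 10 had a positive and 15 a negative log2 fold change, with 1 in each direction at an unadjusted p under 0.05. Nr1i2, the receptor PXR that drives Cyp3a11, had 101.2 and 100.3 CPM in WT against 92.8 and 103 CPM in KO, so its level was close in all libraries while that of Cyp3a11 was not. Nr1i3 (CAR) had 38.8 CPM in WT replicate 1 and between 5.71 and 15.7 CPM in the others. WT replicate 1 was also the highest library for Cyp2b10, its classical target, with 83.7 CPM against 13.2 to 37.9 CPM, and for 45.8% of tested members. The relation of either receptor to its target was not tested. Hnf4a had 1130 and 1195 CPM in WT against 1357 and 1046 CPM in KO. Ahr had 21.2 and 17.1 CPM in WT against 14.1 and 13.5 CPM in KO (log2 fold change -0.47 ± 0.27 (SE), edgeR adjusted p = 0.447).

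The bile acid receptor Nr1h4 (FXR) had 81.5 and 144 CPM in WT against 70.4 and 53.7 CPM in KO (-0.86 ± 0.32 (SE), edgeR adjusted p = 0.296). It is also one of the 7 ileum markers, whose sum was highest in WT replicate 2. Vdr, the vitamin D receptor, had 421 and 572 CPM in WT against 302 and 354 CPM in KO (-0.60 ± 0.27 (SE), edgeR adjusted p = 0.347). Cebpb, a transcription factor of the acute phase, had 31.0 and 27.0 CPM in WT against 69.3 and 40.4 CPM in KO (0.92 ± 0.30 (SE), edgeR adjusted p = 0.269). Among 17 targets of Nfe2l2 (Nrf2), the regulator of the antioxidant response, 11 had a positive and 6 a negative log2 fold change with a median of 0.17, and 0 reached an unadjusted p under 0.05. Nfe2l2 itself had 321 and 251 CPM in WT against 274 and 373 CPM in KO, and its inhibitor Keap1 had 83.2 and 69.5 CPM in WT against 92.7 and 78.4 CPM in KO. A further 3 Ahr targets outside the families were tested: Tiparp, Nqo1 and Nfe2l2 had log2 fold changes of 0.12, -0.28 and 0.18.

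Cofactor supply was mixed, with 8 of 16 genes on each side of 0. The synthases of the sulfate donor PAPS were lower in both KO libraries. Papss2 had 217 and 117 CPM in WT against 67.1 and 81.2 CPM in KO (-1.17 ± 0.33 (SE), edgeR adjusted p = 0.236), and Papss1 had 112 and 147 CPM in WT against 90.2 and 71.4 CPM in KO (-0.68 ± 0.24 (SE), edgeR adjusted p = 0.274). Of 22 other phase I enzymes 11 had a positive and 11 a negative log2 fold change. Xdh, which oxidises purines, had 177 and 199 CPM in WT against 304 and 536 CPM in KO (1.16 ± 0.33 (SE), edgeR adjusted p = 0.236), and the flavin monooxygenase Fmo4 had 45.7 and 37.2 CPM in WT against 20.01 and 28.1 CPM in KO (-0.78 ± 0.26 (SE), edgeR adjusted p = 0.27). Of 11 other conjugating enzymes 8 had a positive log2 fold change. Gstk1, a mitochondrial and peroxisomal glutathione transferase, had 21 and 20.6 CPM in WT against 44.5 and 25.8 CPM in KO.

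Drug transporters stood mostly below 0: 17 of 19 tested had a negative log2 fold change, with a median of -0.38 against 0.0037 over all genes, and 18 did with library size alone. Of these 4 had an unadjusted p under 0.05, all lower in KO, where 8.69% of all genes were lower and 7.08% higher at that threshold. Abcb1a, which encodes the efflux pump P-glycoprotein of the enterocyte brush border, had 628 and 600.4 CPM in WT against 175 and 249 CPM in KO. Libraries of one genotype lay close together and the groups were well apart (-1.54 ± 0.28 (SE), edgeR adjusted p = 0.144). Abcc6 had 16.9 and 18.2 CPM in WT against 4.51 and 4.43 CPM in KO (-1.97 ± 0.31 (SE), edgeR adjusted p = 0.125), and did not overlap either. Abcc4, an exporter of conjugates and cyclic nucleotides, had 30.9 CPM in WT replicate 1, 6.36 CPM in WT replicate 2 and 2.32 and 3.75 CPM in KO (-2.62 ± 0.78 (SE), edgeR adjusted p = 0.249).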

How the data were processed

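Expected counts per gene were deposited by the authors, per the file headers, with one table per library. FPKM values, scaled by transcript length and library size, were deposited in the same tables per the file headers. Tools in the submitters' processing notes were RSEM 1.2.12 and Bowtie2 2.2.5, and the build was mm10; their roles are not stated there. No source used here gives the strandedness, so genes that overlap on opposite strands cannot be told apart. Not listed means that a library's table had no row for the gene. The lowest FPKM listed was 0.01, and 1 count in 2000 bases is worth between 0.0326 and 0.0362 FPKM.

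Tables were joined on gene identifiers with pandas 2.3.3, and 17721 identifiers matched RefSeq GRCm38.p6, which gave coordinates and promoter windows. Rows without a gene held at most 0.000233% of the counts and were left out. Counts were rounded and tested by quasi-likelihood in edgeR 4.0.16 under R 4.3.3 (genotype alone, TMM factors of 0.9365 to 1.043, filterByExpr), with Benjamini-Hochberg adjustment over 12769 genes at 0.05. The coefficient of variation between libraries was 32.5%. Each SE was derived from the test's F value. Alternatives used DESeq2 1.42.0, limma 3.58.1 on log2(FPKM + 1) and log2(FPKM + 0.1), other scalings and filters, a replicate block and each library left out, with the filter applied anew.

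The members, the lists and the tests were chosen with earlier results of these data known. Named were Strap, in each family the 4 tested members with the smallest p and the 4 with the highest mean FPKM, members listed in both libraries of one genotype alone, 3 genes with the smallest p in each pathway list, and 6 regulators. Some genes that this rule would name are not reported here. Genes of counts up to 5 could be named too. Cyp1a1, Cyp1a2, Cyp2b10, Cyp2c44, Cyp2e1, Ces1e, Ces2g, Gstt1 and the single marker genes were named after their values were seen.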

Additional observations from a re-analysis of the deposited data

How the results depend on the processing

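Members called higher in KO were 0 in all 15 settings. Members called lower were 0 with edgeR, 7 with DESeq2, 1 with a replicate block (Ces2a, adjusted p = 0.0485), 1 with a crossed replicate block chosen after seeing the data (Ces1d), and 0 to 5 when 1 library was left out. Libraries of the same number deviated with a correlation of -0.123, so the numbers were not taken as pairs. The number coincides with sex-linked transcripts (Xist in both libraries numbered 1, Y-linked genes in both numbered 2), so the replicate block is in effect also a block for these. Over all genes edgeR called 1 higher and 0 lower, against 0 higher in each limma fit and with library size alone. The calls were 19 higher and 8 lower without a filter, 235 and 432 with DESeq2, 46 and 70 with the replicate block, 65 and 99 with the crossed block, and 0 to 72 and 0 to 300 with 1 library left out.

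With 1 library left out 62 to 67 members were tested in place of 59, so family medians can be over other genes. The Cyp1-3 median was -1.45 without a filter, -1.39 with limma on log2(FPKM + 0.1), and -1.68 to -0.38 with 1 library left out. The Ugt1a median was -0.61 with at least 50 counts in at least 2 libraries. With limma it was -0.245 on log2(FPKM + 1), -0.564 on log2(FPKM + 0.1) and -0.166 over all listed genes, and with 1 library left out -0.44 to -0.31. With 1 library left out the Gst median ran from -0.33 to 0.63 and the Sult median from -0.61 to 0.015, and the Sult median was 0.33 with the stricter filter. The log2 ratio of the summed FPKM then ran from -1.44 to 0.19 for Cyp1-3, -0.24 to 0.53 for Ugt1a, -0.034 to 0.53 for Gst and -0.96 to -0.19 for Ces. Without the top member it was -0.95 for Ugt1a and -0.0724 for Sult.

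Some signs turned with the setting, among genes near 0 and, with 1 library left out, among genes far from it. Gstm1 was 0.0103 without a filter, 0.013 with limma on log2(FPKM + 1), with the same value over all listed genes, 0.013 on log2(FPKM + 0.1), 0.046 with the replicate block and 0.046 with the crossed one. Ugt2b34 was -0.00952 with library size alone, -0.014 with the stricter filter and -0.011 with limma in all 3 forms, and Ugt2b35 was 0.012 without a filter. With 1 library left out the log2 fold change ran from -0.97 to 0.066 for Cyp2d26, -4.56 to 1.48 for Cyp3a11, -0.58 to 1.37 for Cyp3a13, -1.02 to 0.12 for Cyp3a25, -0.93 to 1.07 for Gstm1, -0.33 to 1.93 for Gstm3 and -0.61 to 0.015 for Sult1d1. It ran from -0.349 to 0.0198 for Ugt1a6b, -0.20 to 1.84 for Ugt2a3, -0.27 to 0.23 for Ugt2b35, -0.89 to 0.65 for Ugt2b5, -0.12 to 0.038 for Nr1i2, -1.57 to 1.16 for Nr1i3, -0.0614 to 0.39 for Nfe2l2 and -0.14 to 0.22 for Hnf4a. The cause of these moves was not tested. The lone library left in a group was assumed to vary like the other group. Depth limits the 36 members that never exceeded 20 counts in a library.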
